A study of Bos taurus and Bos grunniens and Bubalus bubalis with 15 samples.

Results

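Castration was examined here by setting 3 castrated against 3 intact Qinchuan bulls, 6 of the 15 animals in a series that also holds 3 Qinchuan females, 3 Qinghai yak and 3 Guangxi buffalo. The members were chosen by label alone, as the arrays marked castrated male or intact male. Qinchuan is a Chinese beef breed. All 3 cattle groups were 36 months old at slaughter, were born in the same period, had a similar genetic background and were reared alike, per the series' design text. No group carried a treatment other than castration, and neither the labels nor the design text state the age at castration. The tissue was the longissimus dorsi, the long muscle beside the spine, and each animal's total RNA was hybridised to 1 bovine array. The labels call the 3 samples of a group biological replicates and number them 1 to 3, and those numbers are used below to name the animals.

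Castration removes the testes and with them most of the circulating testosterone. In skeletal muscle testosterone is known for raising muscle mass and limiting fat. Muscle mass itself depends on the balance between protein synthesis, driven in part by insulin-like growth factors, and breakdown by the ubiquitin-proteasome system, calpains and autophagy. A muscle biopsy is a mixture of fibres, fibroblasts, vessels, fat and immune cells. In such bulk tissue, fewer cells of a type and less RNA per cell cannot be told apart.

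Values are hybridisation intensities on a linear scale, and differences are log2 differences (castrated minus intact) of the intensity with 16 added, so that 1 unit is 2-fold and the change of dim genes is understated. A difference was called where limma's adjusted p, two-sided and corrected over 14409 probe sets, was under 0.05. Muscle genes were bright on every array: ACTA1, the skeletal actin, read 20442, 20598 and 18848 in intact males 1, 2 and 3 and 20075 to 20336 in castrated males. XIST, the transcript of the inactive X chromosome, read 23.6 to 36.2 in the 6 males and 293 to 369 in the females. Array medians of the 9 cattle lay between 6.73 and 6.81 on the log2 scale. The intact males were the less uniform group. Their mean correlation with their own group was 0.931, 0.960 and 0.945 against 0.971 to 0.977 in castrated males, and the median SD over probe sets was 0.19 against 0.15. Intact male 1 also had the highest 3' to 5' actin ratio, which rises as RNA integrity falls. It was 1.48, against 1.17 and 1.39 in the other intact males and 1.24 to 1.27 in castrated males.

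Of the 14409 probe sets tested, 211 (1.46%) were called, 90 higher and 121 lower in castrated males, and in all 211 the 3 castrated arrays lay outside the range of the 3 intact arrays. Changes of 2-fold or more were mostly decreases, with 81 probe sets lower and 26 higher. With each of 7139 genes represented by its brightest probe set, 39 (0.546%) were called higher and 75 (1.05%) lower. The groups were apart, called or not, with castrated males higher in 739 genes (10.4%) and lower in 1057 (14.8%). At an unadjusted limma p under 0.05, 1335 of the 14409 probe sets were higher and 1617 lower. These shares and counts are the background for each gene group that follows, and the median difference over all genes was -0.02. Intact male 1 was the highest of the intact animals in 92 of the 121 probe sets called lower, and intact male 3 the lowest of them in 96.

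The number of calls depended on single animals. Without intact male 2 it was 51, and without castrated male 1, 2 or 3 it was 52, 57 or 41. Without intact male 3 it rose to 995, and without intact male 1 it was 207. A fit to the 6 male arrays alone, which leaves the females out of the estimate of spread, called 37. Of the 58 called genes that the naming rule picked, 12 were called under every alternative that tested them, and these were CUL5, PHF3, S100A4, CCDC80, SERPINF1, PI16, SPARC, SPP1, FMOD, COL1A1, COL1A2 and COL3A1. In the fit to the 6 male arrays 13 of the 58 were called, these 12 and MT1A. The 58 kept their direction in every alternative that refitted the same probe set. A second probe set differed in the opposite direction for COL12A1 (0.08) and COX8B (-0.13). Without intact male 1, 2 or 3 the number of the 58 still called was 46, 21 or 58. Without castrated male 1, 2 or 3 it was 21, 19 or 13. MITF, DKK3, MYH3 and FCN1, a ficolin of monocytes, were lost without castrated male 3 and in no other fit that left out 1 animal. Most of the others were lost without intact male 2 and without 2 or 3 of the castrated males, and for many the highest adjusted p is given beside the gene. For those where it is not, that p was 0.0526 for FCN1, 0.0555 for PCOLCE, 0.0637 for FAP, 0.0781 for TGFBI, 0.0787 for BGN, 0.0863 for FKBP7 and 0.141 for FKBP11 without a castrated male. It was likewise 0.0623 for GPNMB, 0.0769 for GPX7, 0.131 for IFI6, 0.131 for TMED3, 0.143 for MX1 and 0.155 for LOX. Without intact male 2 it was 0.0764 for COL12A1, 0.097 for NAMPT, 0.0979 for KDELR3, 0.116 for MMP2, 0.134 for LRRC69 and 0.141 for S100A9.

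Of the increases, CUL5 and PHF3 were the 2 named by the rule and called under every alternative. CUL5, the cullin on which one family of ubiquitin ligases is assembled, read 96.7, 129 and 120.1 in intact males and 276, 265 and 295 in castrated males. PHF3, a nuclear protein that binds the tail of RNA polymerase II, read 100.4, 105 and 91.7 in intact and 271, 219 and 199 in castrated males. For both genes every castrated animal stood well above every intact one. The log2 differences were 1.17 (SE 0.12, adjusted p = 0.00423) for CUL5 and 1.09 (SE 0.12, adjusted p = 0.00641) for PHF3, and both stayed called whichever animal was left out, with adjusted p up to 0.0271 and 0.0307.

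Several other enzymes that attach or remove ubiquitin were higher in castrated males. LNX2, a RING-type ubiquitin ligase, read 282, 271 and 337 in intact and 765, 611 and 511 in castrated males, a log2 difference of 1.03 (SE 0.17, adjusted p = 0.0245). ARIH1, a ligase that works on cullin complexes, read 295, 342 and 331 against 673, 602 and 635, and rose by 0.95 (SE 0.16, adjusted p = 0.0326). USP28, a ubiquitin protease, read 664, 689.8 and 836 against 1817, 1329 and 1267, and rose by 0.98 (SE 0.18, adjusted p = 0.0371). In all 3 genes the groups were well apart, with castrated male 1 the highest animal. UBA6, an enzyme that activates ubiquitin, went the other way, from 102, 86.3 and 87.6 to 43.6, 49.3 and 54.7 (-0.73, SE 0.14, adjusted p = 0.0441). These calls were less stable than that of CUL5: the adjusted p reached 0.104 for LNX2 and 0.128 for USP28 without intact male 2, and 0.109 for ARIH1 and 0.138 for UBA6 without castrated male 1. Of 22 cullin ligase genes tested, 1 was called higher, CUL5, and 0 lower. Of 51 genes in the list of ubiquitin conjugation and removal 1 was called higher, USP28, and 1 lower, UBA6. LNX2 and ARIH1 are in neither list. The list medians were 0.14 and 0.02 against -0.02 for all genes, and the cullin median ranged from -0.01 without intact male 1 to 0.25 without intact male 3.

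For CUL1 and TRIM2 the call rested on 1 of several probe sets. CUL1, the scaffold of another ligase family, was called higher on a dimmer probe set that read 172, 131 and 147 in intact and 464, 352 and 315 in castrated males (1.24, adjusted p = 0.011), while its brightest probe set differed by 0.43 (adjusted p = 0.119). TRIM2, a ubiquitin ligase, read 47.7, 57.3 and 69.8 against 138, 166 and 159 on the called probe set (1.21, adjusted p = 0.00389), but its brightest probe set differed by 0.05 (adjusted p = 0.933). Both were named after their values were seen. In all, 27 genes were called on a dimmer probe set only, and of 50 called genes with several tested probe sets, 10 had probe sets pointing in both directions.

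BAG2 and FKBP4, 2 co-chaperones that help heat shock proteins, were higher in castrated males. BAG2, which regulates HSP70, read 1516, 1575 and 1364 in intact and 3385, 2753 and 3489 in castrated males. FKBP4, an HSP90 partner of steroid receptors, read 581, 486 and 809.9 in intact and 1164, 1175 and 1337 in castrated males. Both genes were higher in each castrated animal than in any intact one. BAG2 rose by 1.10 (SE 0.15, adjusted p = 0.0122) and FKBP4 by 0.98 (SE 0.20, adjusted p = 0.0472), and without castrated male 3 the adjusted p was 0.0592 and 0.147. They were the 2 members called among 42 cytosolic chaperones, of which 34 had a positive difference and 10 were apart with castrated males higher (1 lower). The list's median was 0.24 against -0.02 for all genes, and it was 0.37 without intact male 1. FKBP5, another steroid receptor co-chaperone and a textbook target of androgen and glucocorticoid receptors, read 97.7, 85.6 and 106 in intact and 82.2, 107 and 126 in castrated males, which overlap.

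A few genes of signalling, transcription and energy use were also higher. MAPK6, an atypical MAP kinase, read 1795, 2291 and 3367 in intact and 5502, 5666 and 5805 in castrated males (1.23, SE 0.20, adjusted p = 0.0245), and a second probe set of it was called too. MITF, a transcription factor of lysosome genes, read 152, 117 and 158 against 374, 284 and 355. PURA, a protein that binds single-stranded nucleic acid, read 218, 211 and 233 against 399.8, 521 and 382 (0.92, SE 0.14, adjusted p = 0.0207). In these 3 genes the lowest castrated animal exceeded the highest intact one by a wide margin. A second probe set of PURA differed by only 0.32 and was not called. MITF was lost narrowly without castrated male 3 (adjusted p = 0.0526), and MAPK6 and PURA without intact male 2 (0.099 and 0.089).

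Among genes of fuel use, the calls were few. ACADM, which oxidises medium-chain fatty acids, read 2692, 3384 and 2882 in intact and 4988, 5395 and 5155 in castrated males (0.80, SE 0.11, adjusted p = 0.015). BNIP3, a receptor that marks mitochondria for autophagy, read 1714, 2579 and 1910.5 against 3911, 3410 and 3967 (0.88, SE 0.16, adjusted p = 0.0382), with 2 of its 3 probe sets called. ACACB, the mitochondrial acetyl-CoA carboxylase, read 58.3, 162 and 291 against 777, 867 and 661. COX8B, a muscle subunit of cytochrome oxidase, read 2323, 3445 and 2877 against 4853, 4886 and 4932 on its brightest probe set, while a second one differed by -0.13. The castrated animals were alike in all 4 genes, and the intact animals spread most in ACACB, where intact male 1 was lowest. Each of these calls was lost when 1 castrated animal was left out, with adjusted p up to 0.0722 for ACADM, 0.131 for BNIP3 and COX8B, and 0.128 for ACACB.

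**Figure D1:**
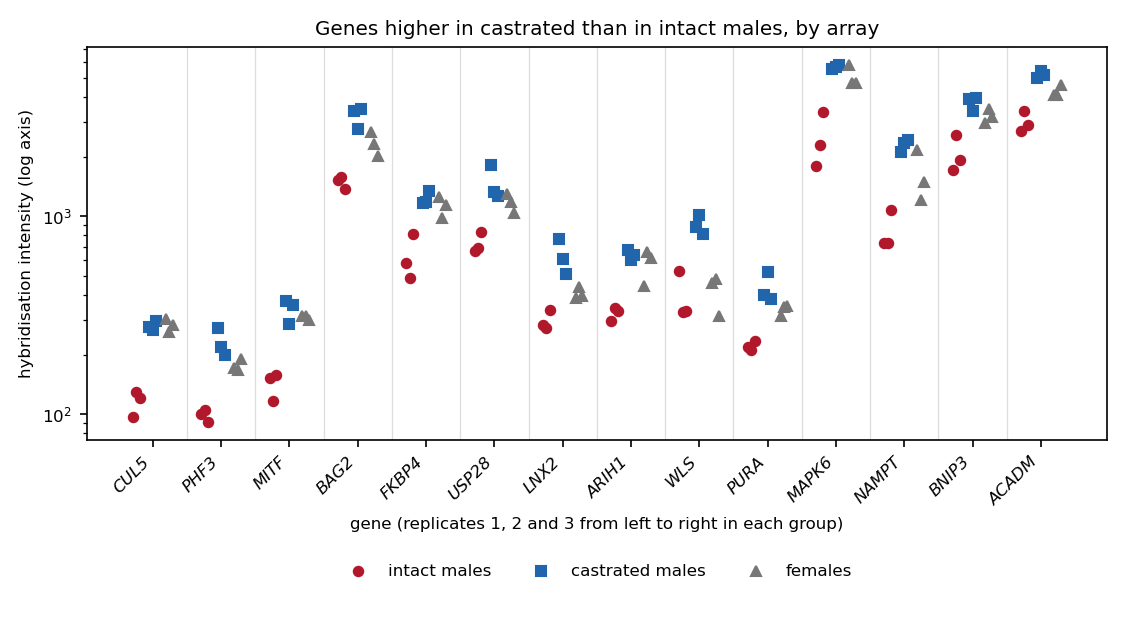
Hybridisation intensity (log axis) of 14 genes called higher in castrated than in intact males, with 1 point per array and females shown beside them. In each gene the 3 squares of castrated males lie above the 3 circles of intact males, as for CUL5 (265 to 295 against 96.7 to 129).

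Mitochondrial lists had mostly positive differences but hardly a call. Of 78 oxidative phosphorylation genes, 71 had a positive difference (median 0.15), 18 were apart with castrated males higher, and COX8B alone was called. Of 65 mitochondrial ribosomal proteins, 54 had a positive difference (median 0.20), 15 were apart with castrated males higher, and 0 were called, with 11 higher and 0 lower at an unadjusted p under 0.05. MRPL34, the leading member, read 617, 843 and 1193 in intact and 1295, 1708 and 1519.7 in castrated males (adjusted p = 0.115). Part of the shift followed 1 animal: without intact male 1 the oxidative phosphorylation median was 0.08, while the mitochondrial ribosome median ranged from 0.17 to 0.32 over all leave-one-out fits. Intact male 1 was the animal with the highest actin and GAPDH 3' to 5' ratios (1.48 and 1.34), and its part in these medians was not tested.

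Ribosomal proteins of the cytosol had mostly negative differences. Of 62 tested, 54 had a negative difference (median -0.11), 17 were apart with castrated males lower and 0 with castrated males higher. In limma 0 were called by the brightest probe set, with 11 lower at an unadjusted p under 0.05. RPL12, a protein of the large subunit, read 8453, 7341 and 7545 in intact and 5860, 6023 and 6328 in castrated males (-0.36, SE 0.08, adjusted p = 0.0707). RPLP0, of the ribosomal stalk, was named after its values were seen. It was called lower on a dimmer probe set that read 8604, 8419 and 8554 against 6819, 6379 and 5729.8 (-0.44, adjusted p = 0.0453). Its brightest probe set differed by -0.31 and was not called (adjusted p = 0.108). The groups were apart for RPL12 and for the called probe set of RPLP0. The list's median shrank to -0.04 without intact male 1. Of 44 translation factors 0 were called, with 7 higher and 1 lower at an unadjusted p under 0.05. Of 38 proteasome genes 0 were called and 8 were apart with castrated males higher, for example PSMB10, an immunoproteasome subunit, at 380.2, 383 and 377 against 557, 551 and 478 (adjusted p = 0.0932).

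Among genes lower in castrated males, those outside collagen and macrophage genes fell into several kinds. Some of these genes, among them S100A4, SERPINF1 and IGFBP6, are also members of the fibroblast list. Of the 17 fibroblast genes tested 5 were called lower and 0 higher. In 11 the groups were apart with castrated males lower, and the list median was -0.94. The number called was 3 to 8 when single animals were left out. S100A4, CCDC80 and SERPINF1 were called under every alternative that tested them. S100A4, a calcium-binding protein of motile mesenchymal and immune cells, read 4326, 3022 and 3187 in intact and 1006, 1060.1 and 851 in castrated males (-1.82, SE 0.17, adjusted p = 0.00257). CCDC80, a secreted protein of connective tissue, read 4141, 2971 and 2405 against 795, 549.9 and 814 (-2.10, SE 0.27, adjusted p = 0.0106). SERPINF1, the secreted pigment epithelium-derived factor, read 3087, 2622 and 1581 against 585, 463 and 574 (-2.09, SE 0.25, adjusted p = 0.00757). The lowest intact value was well above the highest castrated value in each, and their adjusted p stayed at or below 0.0482 whichever animal was left out.

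Several genes of the secretory pathway were lower in castrated males. KDELR3, a receptor that returns escaped proteins from the Golgi to the endoplasmic reticulum, read 847, 603 and 378 in intact and 181, 219 and 185 in castrated males (-1.50, SE 0.24, adjusted p = 0.0245). TMED3, a transport protein of the same route, read 401, 205 and 160.5 against 82.1, 82.7 and 70.9 (-1.42, SE 0.26, adjusted p = 0.0387). In both genes intact male 1 was highest and intact male 3 the lowest intact animal, while the castrated animals were alike. FKBP7 and FKBP11, which fold proteins in the endoplasmic reticulum, fell by 1.45 (SE 0.22, adjusted p = 0.0207) and 1.25 (SE 0.25, adjusted p = 0.0472). FKBP7 read 594, 334 and 302 in intact and 148, 118 and 136 in castrated males. GPX7, a peroxidase of the same compartment, read 512, 279.8 and 241 against 105, 93.7 and 97 (-1.58, SE 0.24, adjusted p = 0.0181). The list of transport between endoplasmic reticulum and Golgi had 2 of 67 genes called, both lower, 20 apart with castrated males lower against 4 higher, and a median of -0.27. The list of folding and the unfolded protein response had 2 of 35 called, both lower, 10 apart lower against 2 higher, and a median of -0.32. Leaving out intact male 1 reduced these medians to -0.12 and -0.13. Without intact male 2 or any castrated male no member of either list was called, and without intact male 3 the counts were 7 and 6. Fibroblast markers, whose cells secrete collagen, summed to 29917, 26894 and 21492 in intact and 12105, 13319 and 12210 in castrated males, and their part in the secretory genes was not tested.

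Several secreted modifiers of growth signals were lower as well. SFRP4, a secreted Wnt antagonist, read 796, 1387 and 445 in intact and 159.5, 169 and 69.6 in castrated males (-2.52, SE 0.41, adjusted p = 0.0245). DKK3, a secreted member of the Dickkopf family, read 506, 506 and 386 against 148, 219 and 153 (-1.36, SE 0.17, adjusted p = 0.00967), and both of its probe sets were called. The groups were far apart in both. Of 19 Wnt and Notch genes these 2 were called, and the list median was -0.10. WLS, which carries Wnt proteins to the cell surface, went up, from 526, 327 and 332 to 883, 1019 and 811 (1.19, SE 0.23, adjusted p = 0.0436). IGFBP6, which binds insulin-like growth factor II, read 3292, 3500.1 and 2641 against 1291, 1608 and 1313 (-1.15, SE 0.16, adjusted p = 0.0142), the only call among 20 IGF and insulin genes. PTN, the growth factor pleiotrophin, named after its values were seen, read 668, 491 and 248 against 64.3, 110.0 and 72.7 (adjusted p = 0.0152). DKK3 narrowly lost its call without castrated male 3 (adjusted p = 0.0526), SFRP4 did so at 0.0787, and IGFBP6 and WLS did so without intact male 2 (0.0662 and 0.139).

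TGFBR2 and BMPR2, 2 of the type II receptors of the TGF-beta family, differed in opposite directions. TGFBR2, the receptor of TGF-beta itself, read 1067, 777 and 699 in intact and 408, 455 and 424 in castrated males (-0.94, SE 0.18, adjusted p = 0.0453). BMPR2, the receptor of bone morphogenetic proteins, read 130.4, 132 and 129 against 206, 246 and 247 (0.76, SE 0.14, adjusted p = 0.0387). The groups did not overlap in either gene. Of 17 genes of this list tested, no other was called. Both calls were lost when castrated animals were left out, at adjusted p up to 0.138 for TGFBR2 without castrated male 1 and 0.131 for BMPR2 without castrated male 3. MSTN, or myostatin, an inhibitor of muscle growth, was too dim to test over all 15 arrays, at 18.4, 27.1 and 56.7 in intact and 30.8, 46.9 and 77 in castrated males, and read 292, 207 and 164 in females.

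A metallothionein and 2 interferon-induced genes were lower. MT1A, a metallothionein that binds zinc and copper, read 2000.2, 1879 and 1297 in intact and 548, 316 and 304 in castrated males, with groups far apart (-2.13, SE 0.28, adjusted p = 0.0112). It was called in the fit to the 6 male arrays too (adjusted p = 0.0474) but not without intact male 2, castrated male 2 or castrated male 3 (highest adjusted p 0.0555). Interferon-induced MX1, an antiviral GTPase, read 248, 509 and 868 against 90.2, 46.2 and 52.8, so that intact male 3 was highest and intact male 1 lowest of its group. IFI6, another interferon-induced gene, was highest in intact male 2, at 1140.2, 2388 and 1131 against 467, 105 and 122. ISG15, a ubiquitin-like protein of the same response, read 229.6, 333 and 683 against 121, 108 and 109 and was not called (-1.60, SE 0.41, adjusted p = 0.0878). Of 27 interferon genes 16 were apart with castrated males lower and 0 higher, 2 were called, and the median was -0.50. This list's median stayed between -0.54 and -0.43 when single animals were left out, although 0 were called without intact male 2, castrated male 2 or castrated male 3.

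PER2, a repressor in the circadian clock, was lower in castrated males on both of its probe sets. The brighter one read 282, 414 and 408 in intact and 164, 125 and 94.6 in castrated males (-1.42, SE 0.24, adjusted p = 0.0301). The dimmer one read 167, 247 and 215 against 105, 98.3 and 73.6 (-1.05, adjusted p = 0.0387). No castrated animal reached the lowest intact animal on either. It was the only call among 9 clock genes, of which 4 were apart with castrated males higher. The call was lost without intact male 2 (adjusted p = 0.116) and in the fit to 6 male arrays (0.0687). The labels do not state the hour of slaughter.

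A tubulin and an annexin were lower in castrated males. TUBB2B, a beta-tubulin, read 4629, 2387 and 1632 in intact and 757, 720.0 and 607 in castrated males (-1.90, SE 0.34, adjusted p = 0.0352). ANXA8L1, a calcium-dependent membrane-binding annexin, read 835, 489.8 and 379 against 149.8, 120.4 and 47.4 (-2.30, SE 0.38, adjusted p = 0.0245). Intact male 1 was the highest animal in both. Of 50 actin cytoskeleton and adhesion genes 1 was called, TUBB2B, but 43 had a negative difference, with a median of -0.44, or -0.24 without intact male 1. Of 17 genes in the list of annexins and membrane repair, which does not hold ANXA8L1, 1 was called, S100A4, and 16 had a negative difference, with a median of -0.72, or -0.49 without intact male 1. TUBB2B was lost without castrated male 3 (adjusted p = 0.126) and ANXA8L1 without intact male 2 (0.0874). Of 30 cell cycle genes 0 were called in limma, 11 were apart with castrated males lower against 1 higher, and 13 were lower at an unadjusted p under 0.05. Macrophage markers summed to 61941, 18324 and 12050 in intact and 5486, 8117 and 9856 in castrated males, in the same order of intact animals as TUBB2B and ANXA8L1, and their part in these lists was not tested.

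Developmental myosins, which fibres make in development and again while regenerating, were bright in intact males and dim in castrated males. MYH3, the embryonic form, read 4129, 1277 and 492 in intact and 48.8, 45.6 and 44.2 in castrated males. MYH8, the perinatal form, fell below the brightness filter over all 15 arrays and read 1106, 659 and 173 against 35.6, 23 and 32.9. Both were highest in intact male 1 and lowest, among intact animals, in intact male 3. In the fit without that filter MYH8 had a log2 difference of -3.50 (SE 0.51, adjusted p = 0.0181). Of 13 developmental contractile genes 1 was called, MYH3, and it was lost without castrated male 3 (adjusted p = 0.0544).

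**Figure D2:**
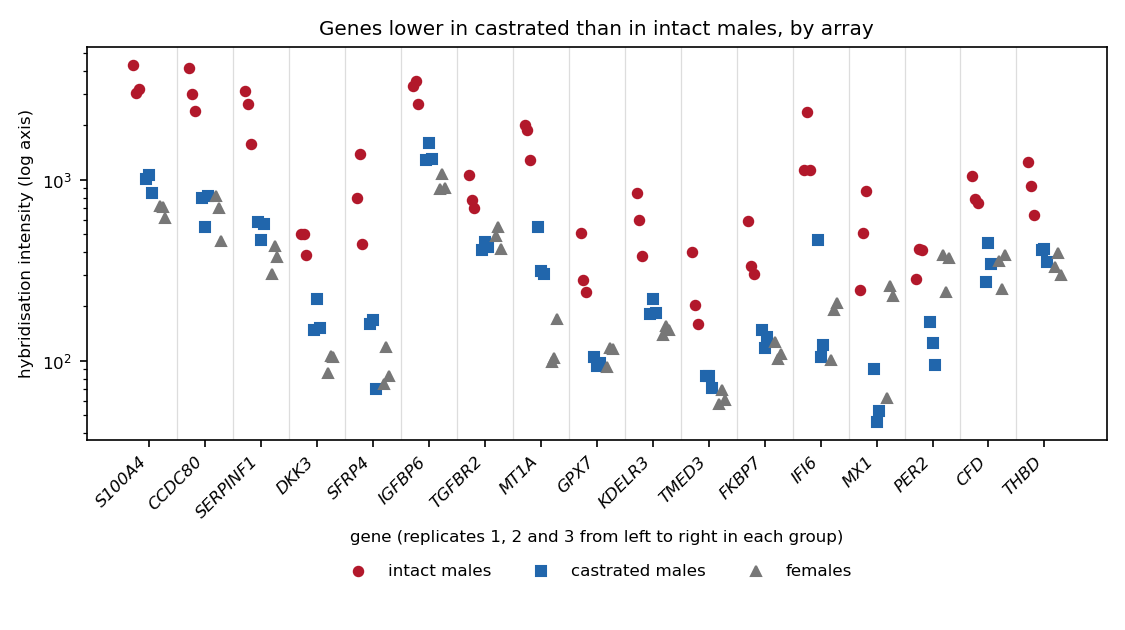
Hybridisation intensity (log axis) of 17 genes called lower in castrated than in intact males, with 1 point per array and females shown beside them. Castrated males lie below intact males in every gene, and for PER2 the females (239 to 387) lie near the intact males.

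Outside the fibroblast and macrophage lists, few markers of other cell types were called. CFD, the complement factor adipsin of fat cells, read 1046, 789.7 and 745 in intact and 274, 449 and 345 in castrated males (-1.25, SE 0.23, adjusted p = 0.0387), yet it was the only call among 21 adipocyte genes, whose median was -0.03. THBD, the thrombin receptor of endothelium, read 1263, 921 and 641 against 412, 415 and 353 (-1.18, SE 0.23, adjusted p = 0.046), the only call among 24 endothelial genes, with a median of -0.08. BLNK, an adaptor of B cell signalling that other blood cells also carry, read 156, 109 and 102 against 54.2, 65.8 and 57.5 (-0.86, SE 0.14, adjusted p = 0.0238), the only call among 17 T, B and NK cell genes. The groups were apart in all 3 genes. Without castrated male 3 the adjusted p was 0.127 for CFD and 0.146 for THBD, and without castrated male 1 it was 0.093 for BLNK. S100A9, of the neutrophil and mast cell list, was higher instead. It read 103, 90.2 and 108 in intact and 149, 142 and 141 in castrated males (0.46, SE 0.09, adjusted p = 0.046). It was the only call among the 6 genes of that list tested, whose median was 0.06. Of 12 smooth muscle and 4 blood genes 0 were called in limma, with 0 and 0 at an unadjusted p under 0.05. Summed endothelial markers overlapped, at 11351, 12589 and 10078 in intact and 9525, 10868 and 8387 in castrated males.

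The androgen and growth genes on the array showed little that passed the test. ESR1, an oestrogen receptor, was too dim to test. NR3C1, the glucocorticoid receptor, read 236, 331 and 406 in intact and 401, 489.7 and 559.9 in castrated males and did not pass (0.57, 95% interval 0.12 to 1.03, adjusted p = 0.166). IGF1, the growth factor, read 378, 311 and 338 against 352, 368 and 343, a difference of 0.05 with an interval from -0.23 to 0.33. The intervals of IGF2 (-0.90 to 0.52) and GHR, the growth hormone receptor (-0.34 to 1.10), were wider, and of the 3 only that of GHR reaches a 2-fold change. FST, or follistatin, an inhibitor of myostatin, read 305, 343 and 339 against 461, 479 and 387, apart but not called (0.41, 95% interval -0.01 to 0.83, adjusted p = 0.258). SAT1, which breaks down polyamines, read 5912, 3844 and 3328 against 1346, 2119.7 and 2012 and just missed the threshold (-1.23, SE 0.26, adjusted p = 0.0567). The polyamine-making enzymes ODC1 (0.53) and AMD1 (0.87) overlapped between the groups. Of 20 steroid and androgen signalling genes FKBP4 was the single call.

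The muscle ubiquitin ligases and the calpains and cathepsins had no call, and the medians of these 2 lists had opposite signs. FBXO32, the ubiquitin ligase atrogin-1 that marks wasting muscle, read 891, 2529 and 1442 in intact and 3226, 3081 and 3171 in castrated males (1.08, SE 0.34, adjusted p = 0.136). FBXO40, a muscle ligase for an insulin receptor substrate, read 27.2, 50.2 and 74.6 against 188, 115 and 103 (1.21, SE 0.35, adjusted p = 0.115). The castrated animals were all above the intact ones in both, and intact male 1 was the lowest. Of 13 muscle ubiquitin ligases 6 were apart with castrated males higher and 0 lower, 0 were called in limma and 5 were higher at an unadjusted p under 0.05. Their median of 0.57 became 0.30 without intact male 1. Calpains and cathepsins had 12 negative differences, with a median of -0.61 over 16 genes, or -0.30 without intact male 1, 7 apart with castrated males lower, 0 called in limma and 7 lower at an unadjusted p under 0.05. The median deviation of this list was 0.67, 0.32 and 0.08 in intact males 1, 2 and 3, in the same order as that of the macrophage markers (2.59, 0.66 and 0.16), whose part in it was not tested. CAST, the calpain inhibitor calpastatin studied for meat tenderness, read 3185, 2228 and 1870.5 against 1430.0, 1244 and 1377 (-0.81, SE 0.21, adjusted p = 0.0952). A second CAST probe set differed by only -0.03. CAPN2, the large subunit of m-calpain, read 2615, 2016 and 1887 against 1594, 1375 and 1244 (-0.62, SE 0.16, adjusted p = 0.0952). CAPN1, the large subunit of mu-calpain, read 95.9, 93.3 and 96 against 103, 88.8 and 102 (interval -0.16 to 0.23).

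No fibre type or fat gene given in this paragraph was called, whereas ACACB, given above, was (2.29). Several of them showed little difference or were measured with little precision. MYH7, the slow myosin, read 8057, 10770.4 and 7985 in intact and 12792, 9020.1 and 11705 in castrated males, and MYH1, a fast myosin, read 5155, 10932 and 12647 against 11132, 10766 and 12310.1. Both overlapped, with adjusted p of 0.262 and 0.494, and intact male 1 alone was low in MYH1. Of 12 fast fibre genes 0 were called in limma (1 higher at an unadjusted p under 0.05), and their median of 0.27 was 0.01 without intact male 1. Among fat genes, FABP4, the fatty acid carrier of adipocytes, read 3154, 2922 and 288 against 1100.2, 1616 and 734, and ADIPOQ, or adiponectin, read 175, 488 and 55.1 against 127, 275 and 97. Their intervals, from -2.24 to 1.54 and from -1.64 to 1.28, admit a 2-fold change in either direction. LPL, the lipase that takes up fat, was measured more tightly, at 1173, 1169.8 and 1239.8 against 1054, 1458 and 1076 (interval -0.45 to 0.42). SCD, the desaturase that makes oleic acid, read 789.6, 1259 and 776 against 324, 583 and 704, apart but not called (adjusted p = 0.221). VLDLR, a lipoprotein receptor, was the nearest to the threshold among lipid transport genes, at 338, 729 and 797 against 1763, 1953 and 1607 (1.58, SE 0.33, adjusted p = 0.0554). Its other, dimmer probe set differed by only 0.11.

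**Figure D3:**
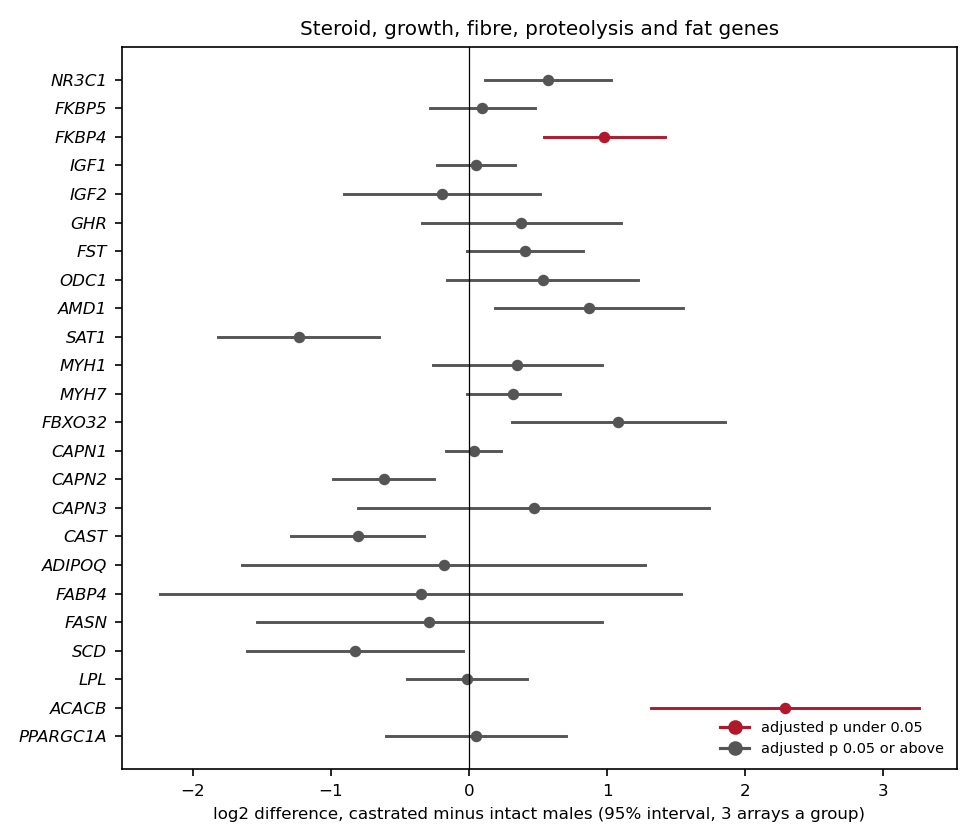
Log2 difference, castrated minus intact males, of 24 steroid, growth, fibre, proteolysis and fat genes, with points for the estimate and bars for the 95% interval of the limma fit (3 arrays a group). ACACB (2.29) and FKBP4 (0.98) passed the threshold, and the bars of ADIPOQ and FABP4 are the widest of the fat genes.

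**Figure D4:**
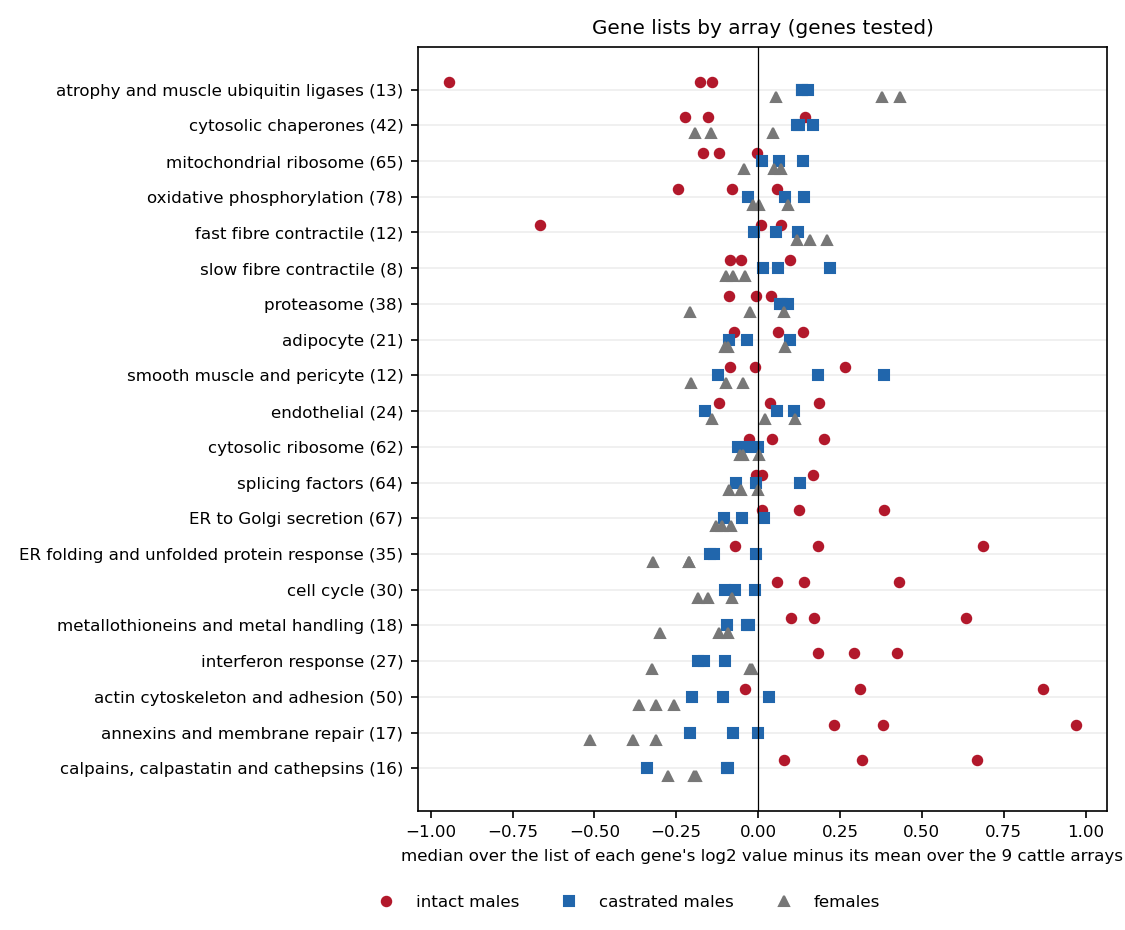
Median over each of 20 gene lists of the genes' log2 values minus their means over the 9 cattle arrays, 1 point per array, with the number of genes tested in brackets. Intact male 1 is the far point in the muscle ubiquitin ligases (-0.94) and the actin cytoskeleton (0.87), while the interferon list has all intact males (0.18 to 0.42) above all castrated males (-0.18 to -0.10).

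Few probe sets separated castrated males from females. The same fit called 3 of 14409 probe sets (0.0208%) between castrated males and females, a comparison that shares the castrated arrays with the one above. Of the 3, 2 were probe sets of XIST. The other was LOC515676, a protein-coding gene that the tables used here list by its locus number. Its difference from intact males was larger than that of any increase named by the rule, which left out genes with locus-number names, and it is named after its values were seen. It read 69.3, 86.1 and 61.8 in intact males, 562, 673 and 381 in castrated males and 94.2, 99.6 and 51.8 in females. Only the castrated animals were high, and their lowest value was far above the highest of the other cattle. The log2 difference was 2.62 from intact males (adjusted p = 0.00268) and 2.50 from females (adjusted p = 0.0132), and the fit to the 6 male arrays called it too (adjusted p = 0.0081).

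Other genes had castrated animals apart from both other cattle groups without passing the test against females. PER2 read 387, 239 and 372 in females, above the 94.6 to 164 of castrated males, with a castrated-minus-female difference of -1.28 (adjusted p = 0.333). WLS read 458, 479 and 314 in females, below the 811 to 1019 of castrated males (1.10, adjusted p = 0.342). PITX1, a homeobox factor of the hindlimb named after its values were seen, read 65.2, 69.1 and 50.1 in intact males, 134, 118 and 112 in castrated males and 72, 57.8 and 48.6 in females, and differed from females by 0.87 (adjusted p = 0.214). In these 3 genes the females lay with or near the intact males. MT1A formed a series instead, with females (98.7, 104 and 170.0) below castrated males (304 to 548) and these below intact males (1297 to 2000.2). Its castrated-minus-female difference of 1.51 did not pass (adjusted p = 0.31). FBXO32 was ordered in the other direction, with females at 3281, 4400.4 and 6129 and castrated males at 3081 to 3226, so that these groups nearly touched. Its castrated-minus-female difference was -0.49 (adjusted p = 0.784), and its difference from intact males was not called either (adjusted p = 0.136).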

How the data were processed

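Total RNA of each animal was labelled with biotin and hybridised to 1 Affymetrix bovine array, per the labels' protocols. The authors deposited 1 summarised hybridisation intensity per probe set and array, on a linear scale. Their background correction and normalisation are not stated in the material used here, so a difference can also carry that processing. From the table, 112 control probe sets were removed, 16 was added to each intensity and log2 taken. The 14409 of 24016 probe sets whose mean over all 15 arrays lay above the 40th percentile (6.42) were tested with limma 3.58.1 in R 4.3.3, in 1 fit to the 9 cattle arrays with a mean per group and a trended prior, and adjusted by Benjamini-Hochberg (two-sided, threshold 0.05). With 3 arrays a group an exact permutation test cannot go below 0.1. Arrays have no read depth; precision is limited by their number.

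Of the probe sets, 13292 had 1 gene symbol in the platform's annotation, 86 several and 10638 none listed; 62 called probe sets had no single symbol. A gene stood by its brightest tested probe set over the 9 cattle arrays. Genes named are the 15 largest called differences in each direction with groups apart, the 15 smallest p (locus-number names left out of both), up to 4 called members of each of 62 gene lists (where none was called, the 2 smallest p) and a fixed panel, of which 1 gene is not reported here; others are marked as named after their values were seen. The lists, panel and rule were chosen with earlier results of these data known, so no list is independent support. The steps were tested on simulated data. Alternatives changed the value added before log2, the filter, the scaling, the arrays in the fit, the variance prior, array weights, the probe set of a gene and a block by replicate number.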

Additional observations from a re-analysis of the deposited data

How the results depend on the processing

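Of the 211 calls (90 higher and 121 lower in castrated males), 202 to 205 were also called with 1 or 64 added before log2, with the filter over the cattle arrays, with quantile normalisation or with median centring. Without the filter 160 of the 211 were called (218 in all), and without the variance trend 172 (188 in all). Beyond 1.5 times lay the fit to the 6 male arrays (37 calls, 12 higher and 25 lower), the fit to all 15 arrays (718, 249 higher and 469 lower), gene-by-gene array weights (929, 426 higher and 503 lower; limma's other algorithm for these weights did not converge) and, for the lower calls, a filter at the 60th percentile (78). The 3 array weights of intact males were 0.27, 2.19 and 0.69. Leaving out 1 animal gave 41 to 995 calls, 18 to 340 higher and 23 to 655 lower. With the replicate number as a replicate block 143 probe sets were called, 57 of them higher and 86 lower, 120 of them among the 211. For the higher calls (57 against 90) this block also lay beyond 1.5 times. The labels do not say that a number marks shared animals, litters or days, and deviations of same-numbered cattle arrays correlated from -0.12 to 0.14, over 0.1 in 3 of 9 pairs, so the arrays were not treated as paired. Of the 58 called genes named by the rule, 13 were called in the fit to the 6 male arrays (MT1A and the 12 called throughout) and 39 with the replicate block, which lost ACACB, ARIH1, BLNK, BNIP3, CFD, COX8B, FKBP11, FKBP4, IFI6, LNX2, MAPK6, MX1, PER2, S100A9, TGFBR2, TMED3, TUBB2B, UBA6 and USP28. COX8B lost its call under quantile normalisation (not under median centring), MT1A and WLS in the fit to all 15 arrays, and FKBP4, FKBP11, MX1, LOX, S100A9, THBD and UBA6 without the filter. LOX was also lost with 1 added, with the cattle filter, under both scalings and without the trend, FKBP11 with 64 added, and FKBP11, MX1, S100A9 and UBA6 without the trend. No called gene named by the rule changed sign on the probe set that stood for it. Among genes not called, LPL changed sign under quantile normalisation (0.047), median centring (0.025) and array weights (0.079). Leaving out single animals also turned the sign of HBM (-0.0069 to 0.13), IGF1 (-0.015 to 0.12), IGF2 (-0.48 to 0.11), GHR (-0.045 to 0.67), MYH1 (-0.047 to 0.60), CAPN3 (-0.17 to 0.97), ADIPOQ (-0.89 to 0.52), FABP4 (-1.46 to 0.23), LPL (-0.16 to 0.069), FASN (-0.69 to 0.053), PPARGC1A (-0.15 to 0.38), FKBP5 (-0.026 to 0.24), ACTA1 (-0.023 to 0.042) and CKM (-0.0098 to 0.18). The cause of these changes was not tested. With 3 animals a group, small changes cannot be measured, and probe sets under the filter were not tested.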

Other observations

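Among called probe sets that the naming rule left out, and so named after their values were seen, CXCL12, ACKR3 and RGS16 were lower. CXCL12, the chemokine that holds stem cells and lymphocytes in tissue, read 622, 658 and 632 in intact and 304, 395 and 281 in castrated males (-0.94, adjusted p = 0.0207 in limma). ACKR3, a receptor that scavenges it, read 1146, 1527 and 1186 against 685, 593 and 616 (-0.999, adjusted p = 0.0207). Every castrated animal was below every intact one for both genes of the pair. RGS16, a brake on G protein signalling, read 363, 217 and 460.2 against 69.3, 101 and 108 (-1.69, adjusted p = 0.0400).

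Other calls, again named after their values were seen, were higher. METTL16, an RNA methyltransferase, read 125, 129.6 and 122 in intact and 231, 228 and 219 in castrated males (0.77, adjusted p = 0.00641). SAFB2, a nuclear scaffold protein, read 69.4, 50.5 and 51.3 against 133, 141 and 124 (1.03, adjusted p = 0.00692). Both lay in a narrow range within each group and were called in the fit to the 6 male arrays, with adjusted p of 0.0446 and 0.0383. Each was called on a dimmer probe set, and the brightest probe sets differed by 0.26 (adjusted p = 0.258) and 0.23 (adjusted p = 0.396). NEB, the giant thin filament protein nebulin, was called on 2 of its 3 probe sets, one of which read 72.0, 156 and 120.3 against 839.8, 309.7 and 477 (2.02, adjusted p = 0.0387), while its brightest probe set differed by 0.18 (adjusted p = 0.342).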
